A study of Homo sapiens with 11 samples.

Results

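In all, 10 noncoding host genes of small nucleolar RNAs (snoRNAs) were followed through mutant p53 cells: SNHG1, SNHG5, SNHG6, SNHG8, SNHG15, SNHG16, SNHG19, SNHG25, GAS5 and ZFAS1. They were found by gene symbol, each in 1 row, and make up 10 of the 45965 genes of the count table. They were chosen with results of these data in view, and SNHG25 was selected on its fitted log2 fold changes, which for the codon 72 form of p53 differed between the p53 mutants. Its values in the comparisons that make up that difference are therefore given as a description with no test. All 10 passed the filter on low counts.

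The 11 libraries came from H1299, a human lung carcinoma line that lacks p53 of its own, so the p53 studied was that of the construct. The groups were R273H on R72 (1 library), R273H on P72 (4 libraries), R175H on R72 (3 libraries) and R175H on P72 (3 libraries). R273H and R175H are hotspot mutations of the DNA-binding domain of p53, and R72 and P72 are the arginine and proline forms of its codon 72 polymorphism. All cells received 5 µg of DNA with Fugene and 14 days of neomycin at 800 µg per ml, and the labels do not say whether a line was a pool or a clone, nor whether its replicates were cultures grown apart. The p-values therefore set differences between groups against the spread of libraries within groups, which may be no more than technical variation. No H1299 library without mutant p53 was analysed here. Messenger RNA was read at its 3′ end (QuantSeq, 75 bp reads), and the files hold estimated counts per gene.

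snoRNAs guide chemical modification of ribosomal RNA: those of the box C/D class direct methylation and those of the box H/ACA class direct pseudouridylation. Most human snoRNAs are cut out of the introns of a host transcript. The noncoding hosts keep little protein-coding content in their spliced exons, and several of them are cleared by nonsense-mediated decay once ribosomes engage them. Many start with a run of pyrimidines, as the messages of ribosomal proteins do, and such 5′ terminal oligopyrimidine (TOP) transcripts respond to mTOR signalling at the level of translation and stability. GAS5 was named for its accumulation in cells arrested in growth.

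GENCODE 29 places 22 snoRNA entries inside 9 of the 10 genes on the same strand, 7 of them in SNHG1, and lists none inside GAS5. These are counts of entries in that annotation, so the lack of one in GAS5 does not show that GAS5 carries no snoRNA. SNHG25 (ENSG00000266402) is a short lincRNA at chr17:64145970-64146476 on the plus strand, and its entries are SNORD104, in an intron, and the overlapping pair RF00407 and SNORA50C, on an annotated exon. SNHG19 (ENSG00000260260) lies at chr16:2154797-2155358 on the minus strand and holds SNORD60, of which RF00345 is a shorter entry. The intronic snoRNAs of these hosts are shown because SNHG25 and SNHG19 had the lowest fitted values with R72 on R175H. SNORD26, in SNHG1 (ENSG00000255717, chr11:62851988-62855914, minus strand), is shown because it had the most counts of any of the 22 entries. Coordinates are hg38. Capitals mark TGATGA within the first 20 bases (the core of a C box) and CTGA within the last 14 (a D box), searched on the given strand; of 992 snoRNA and scaRNA entries in GENCODE 29, 24.8% held the first and 43.2% the second.
SNORD104 in SNHG25, chr17:64146083-64146152, plus strand: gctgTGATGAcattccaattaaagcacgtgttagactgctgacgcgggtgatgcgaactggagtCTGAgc
SNORD60 in SNHG19, chr16:2155023-2155105, minus strand: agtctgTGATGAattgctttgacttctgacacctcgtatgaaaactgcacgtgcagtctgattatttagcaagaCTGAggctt
SNORD26 in SNHG1, chr11:62855292-62855366, minus strand: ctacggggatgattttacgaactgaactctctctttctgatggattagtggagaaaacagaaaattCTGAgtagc
The letters TGATGA are not in the first 20 bases of SNORD26.

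RefSeq promoter sequence (GRCh38.p14) matched 7 of the 10 genes. The windows of 6 of them are shown because pyrimidine runs are a feature shared with ribosomal protein genes. That of GAS5 is left out because it lies wholly upstream of the 5′ end of the gene in GENCODE 29. The RefSeq and GENCODE starts also differ for SNHG1, SNHG8 and ZFAS1, whose windows lie wholly downstream of the GENCODE 5′ end. Each window runs from 20 bases before to 20 bases after the annotated start on the strand of the gene. Capitals mark the longest run made of C and T alone, or the first such run in a tie, searched on that strand only.
SNHG1, chr11:62855866-62855905, minus strand: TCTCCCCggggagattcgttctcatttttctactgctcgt
SNHG5, chr6:85678714-85678753, minus strand: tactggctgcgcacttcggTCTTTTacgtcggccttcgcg
SNHG8, chr4:118278742-118278781, plus strand: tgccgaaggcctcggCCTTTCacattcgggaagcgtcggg
SNHG16, chr17:76557744-76557783, plus strand: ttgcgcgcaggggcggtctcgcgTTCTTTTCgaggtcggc
SNHG19, chr16:2155339-2155378, minus strand: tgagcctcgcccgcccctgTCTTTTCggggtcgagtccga
ZFAS1, chr20:49278622-49278661, plus strand: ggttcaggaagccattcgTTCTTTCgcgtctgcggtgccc
These runs are 6 to 8 bases long. That of SNHG1 begins 20 bases before the annotated start, and those of the other 5 begin at or within 5 bases of it. SNHG1 also has an equally long run, left in lower case, that begins within 5 bases after its start. A run of at least 6 bases was found in 38.8% of 35116 RefSeq promoters, one of at least 7 in 25.6% and one of at least 8 in 17.5%. In the GAS5 window, not shown, the longest run was 4 bases, and 79.4% of promoters had one at least as long. The median run was 7 bases over the 7 host genes with GAS5 included, 11 over 78 ribosomal protein genes and 5 over all promoters.

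Totals per library were 8346926 to 12829560 counts, and TMM scaling factors were 0.979 to 1.03. By the labels, batch b1 holds R273H P72 replicates 2, 3 and 4 together with R175H R72 replicate 1, and batch b2 the other 7 libraries. Of the lung carcinoma markers, KRT8 and KRT18 were at 241 to 300 and 656 to 1040 counts per 1000000 (CPM), while KRT19, EPCAM and CDH1 stayed at or under 0.709 CPM and the mesenchymal gene VIM was at 755 to 1830 CPM. Summed over 4 markers each, leukocyte genes reached 5.23, fibroblast genes 6.57 and endothelial genes 1.48 CPM at most, and CD3E, LUM and CDH5 were at 0 in all 11 libraries.

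Together the 10 host genes took 0.482% of the counts of the R273H R72 library, 0.421% to 0.465% in R273H P72, 0.484% to 0.562% in R175H R72 and 0.578% to 0.627% in R175H P72. The R273H P72 and R175H P72 shares did not overlap. SNHG25 supplied between 27.5% and 43.3% of these counts in each library. Without it the other 9 took 0.314% in R273H R72, 0.276% to 0.312% in R273H P72, 0.317% to 0.333% in R175H R72 and 0.343% to 0.388% in R175H P72, so the same order of the P72 groups was seen in the remaining genes. In these bulk samples, fewer transcripts per cell and fewer cells that make them cannot be told apart. The ratio of the highest to the lowest of the 11 libraries ran from 1.3 for SNHG8 to 2.5 for ZFAS1.

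**Figure D1:**
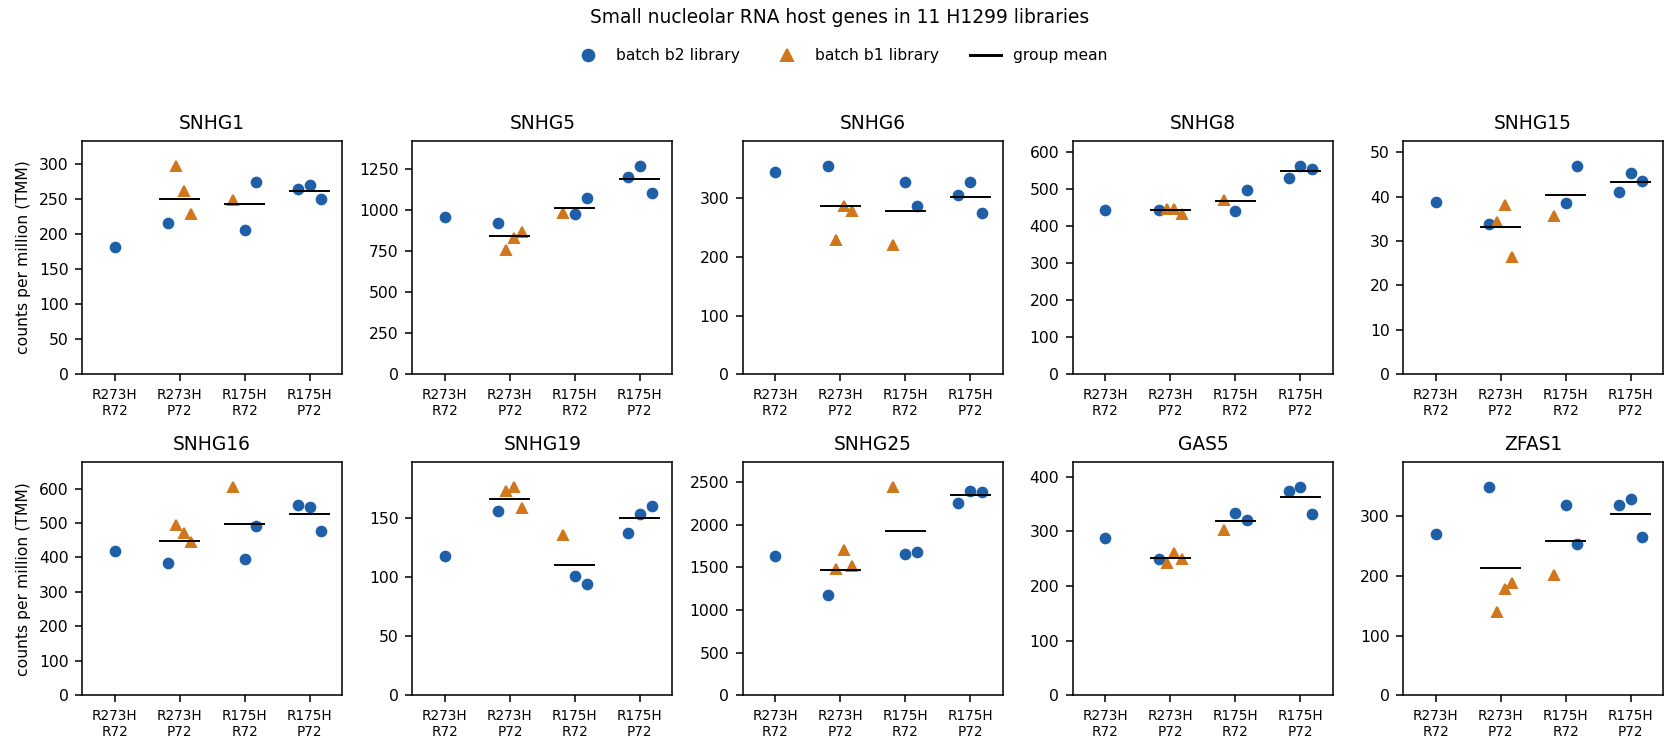
CPM (TMM-scaled) of the 10 host genes in each of 11 H1299 libraries, by hotspot mutation and codon 72 form; circles are batch b2, triangles batch b1, and the line is the mean of a group with more than 1 library. For GAS5 the 4 R273H P72 libraries sit at 243 to 261 CPM, under the 3 R175H P72 libraries at 332 to 381 CPM, while in SNHG6 and ZFAS1 the R273H P72 library of batch b2 stands above the 3 of batch b1.

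On P72, R273H cells had less of several host transcripts than R175H cells. SNHG5, SNHG8, SNHG16 and GAS5 fell, which is 4 of the 9 genes other than SNHG25, and none of the 9 rose. Over all 16324 genes tested, 7.6% were called lower in this comparison, 6.95% higher and 14.6% in either direction (edgeR's quasi-likelihood test, Benjamini-Hochberg adjusted p under 0.05). Many of these are genes of low counts, in which calls are harder to reach. With a filter of 10 CPM in at least 3 libraries, 1170 of 9368 genes were called lower and 1214 higher, beside 4 of the 9 host genes lower. The median log2 fold change was -0.28 over the 9 genes and 0.003 over all genes.

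GAS5 (ENSG00000234741), the host named for growth arrest, had 249, 243, 261 and 250 CPM in R273H P72 replicates 1 to 4, against 374, 381 and 332 CPM in R175H P72 replicates 1, 2 and 4. All 4 R273H libraries lay under all 3 R175H libraries, and the batch b2 library of R273H, replicate 1, was among them. Its log2 fold change was -0.50 (SE 0.10, adjusted p = 0.00156), or 1.41-fold lower. The mean was 251 ± 7.63 CPM in R273H P72 (SD, n = 4) and 362 ± 26.6 CPM in R175H P72 (SD, n = 3).

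SNHG5 (ENSG00000203875), host of SNORD50B, had 921, 760, 830 and 864 CPM in R273H P72 replicates 1 to 4 and 1201, 1271 and 1106 CPM in R175H P72 replicates 1, 2 and 4. The groups did not overlap. The log2 fold change was -0.41 (SE 0.10, adjusted p = 0.00783).

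SNHG8 (ENSG00000269893), host of the box H/ACA snoRNA SNORA24, had 444, 445, 446 and 431 CPM in R273H P72 replicates 1 to 4 and 529, 562 and 554 CPM in R175H P72 replicates 1, 2 and 4. The groups did not overlap, and the 4 R273H libraries spread over less of their mean than those of any other host gene. The log2 fold change was -0.31 (SE 0.09, adjusted p = 0.0263).

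SNHG16 (ENSG00000163597), which holds SNORD1A, SNORD1B and SNORD1C, had 384, 495, 471 and 444 CPM in R273H P72 replicates 1 to 4 and 552, 547 and 476 CPM in R175H P72 replicates 1, 2 and 4. The groups overlapped: R273H replicate 2, of batch b1, was above R175H replicate 4. The fitted log2 fold change was -0.51 (SE 0.11, adjusted p = 0.00338) with the batch term and -0.23 (adjusted p = 0.236) without it. SNHG16 was itself higher in batch b1, so its call rests on the batch term.

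SNHG25 had 1181, 1484, 1700 and 1512 CPM in R273H P72 replicates 1 to 4 and 2251, 2396 and 2382 CPM in R175H P72 replicates 1, 2 and 4. Every R273H library was below every R175H library. The log2 fold change was -1.04 (SE 0.10), 2.05-fold lower, and -0.91 with a correction for GC content; it is a description here since these libraries are part of the difference that brought the gene into the list.

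The other 5 genes were not called. SNHG15, host of SNORA9, was lower without overlap, at 26.3 to 38.1 CPM in R273H P72 and 40.9 to 45.3 CPM in R175H P72, with a log2 fold change of -0.28 (SE 0.14, adjusted p = 0.210). With SNHG5, SNHG8 and GAS5 that made 4 of the 9 genes other than SNHG25 lower with no overlap, against 14.1% of all genes. SNHG1 had a log2 fold change of -0.20 (SE 0.13), SNHG19 of -0.07 (SE 0.11), ZFAS1 of 0.02 (SE 0.17) and SNHG6 of 0.25 (SE 0.11, adjusted p = 0.139). The sizes for SNHG19 and ZFAS1 depended on the libraries used: with 1 library left out at a time, they ranged from -0.30 to 0.05 for SNHG19 and from -0.34 to 0.20 for ZFAS1.

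Because 3 of the 4 R273H P72 libraries are batch b1 and all R175H P72 libraries are batch b2, the comparison within a batch is 1 library against 3. The R273H P72 library of batch b2 was below all 3 R175H P72 libraries for SNHG1, SNHG5, SNHG8, SNHG15, SNHG16, SNHG25 and GAS5. It was above them for SNHG6 (356 CPM against 276 to 328) and ZFAS1 (349 CPM against 264 to 329) and among them for SNHG19. In the fit to batch b2 alone the log2 fold changes were -0.54 for GAS5 (adjusted p = 0.0204), -0.45 for SNHG16 (adjusted p = 0.0720), -0.37 for SNHG5 (adjusted p = 0.101) and -0.31 for SNHG8 (adjusted p = 0.158). GAS5 was thus the only one of the 9 called there. It was not called without R273H P72 replicate 1 (adjusted p = 0.0812), and SNHG5 was not called without R175H R72 replicate 1 (adjusted p = 0.0582). SNHG8 was called in 8 of the 11 fits that each left out 1 library and missed the threshold without R175H P72 replicate 2, R175H R72 replicate 1 or R273H P72 replicate 1 (adjusted p = 0.0753, 0.0954 and 0.178). With the replicate number as a block its adjusted p was 0.0792.

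**Figure D2:**
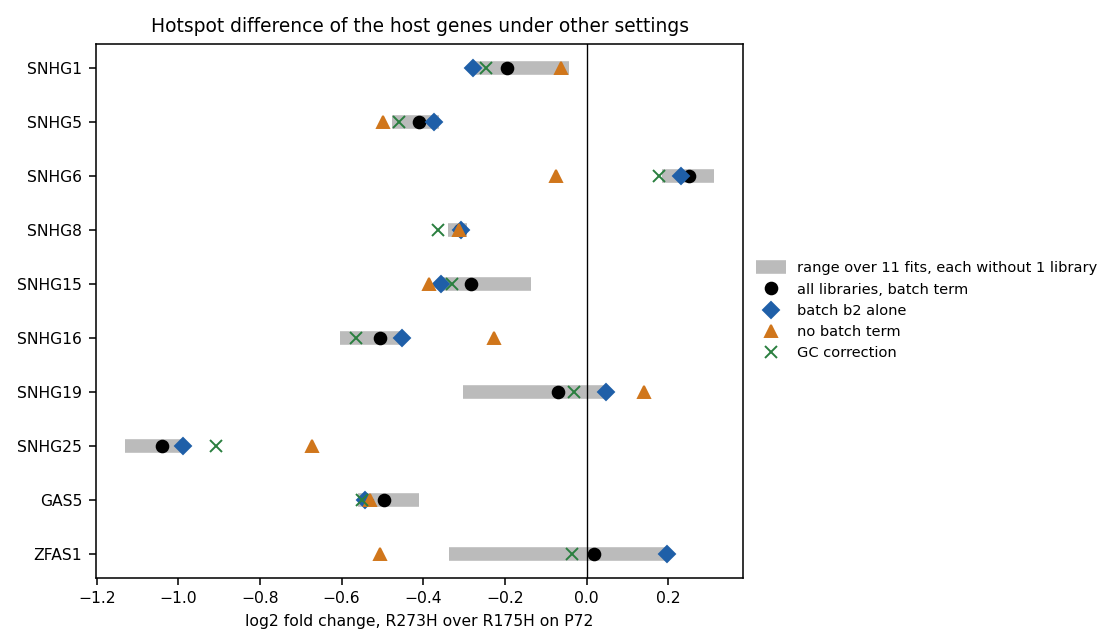
Log2 fold change of R273H over R175H on P72 for the 10 host genes: black points are the fit to all libraries with a batch term, grey bars the range over 11 fits that each leave out 1 library, and other symbols the fits named in the legend. GAS5, SNHG5, SNHG8, SNHG16 and SNHG25 stay below 0 throughout, while without the batch term SNHG6 moves to -0.07 and ZFAS1 to -0.51.

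Ribosomal protein genes took the same direction on P72. Of 79 cytosolic ribosomal protein genes tested, 25 fell and 1 rose in R273H compared with R175H cells, and the median log2 fold change was -0.24. Of these genes 38 were lower with no overlap and 60 had negative values, against 14.1% and 49.7% of all genes. Over all genes 7.6% were called lower and 6.95% higher. Ribosomal protein genes have many processed pseudogenes, so the sharing of reads among near-identical copies makes their counts less certain. RPS28 averaged 727 ± 81.8 CPM in R273H P72 (SD, n = 4) and 871 ± 44.9 CPM in R175H P72 (SD, n = 3), with a fitted log2 fold change of -0.64 (SE 0.10, adjusted p = 0.000317). RPL36, RPL12, RPS14 and RPS10 had log2 fold changes of -0.62, -0.53, -0.52 and -0.45, all called. RPS28 and RPS14 were themselves higher in batch b1, by 0.50 and 0.38, so the sizes of their fitted falls depend on the batch term. Over the 22 other settings tried, the median of the list stayed between -0.31 and -0.19, and between 11 (batch b2 alone) and 29 of its genes were called lower. The 9 host genes other than SNHG25 had medians of -0.37 to -0.24 under the same settings.

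**Figure D3:**
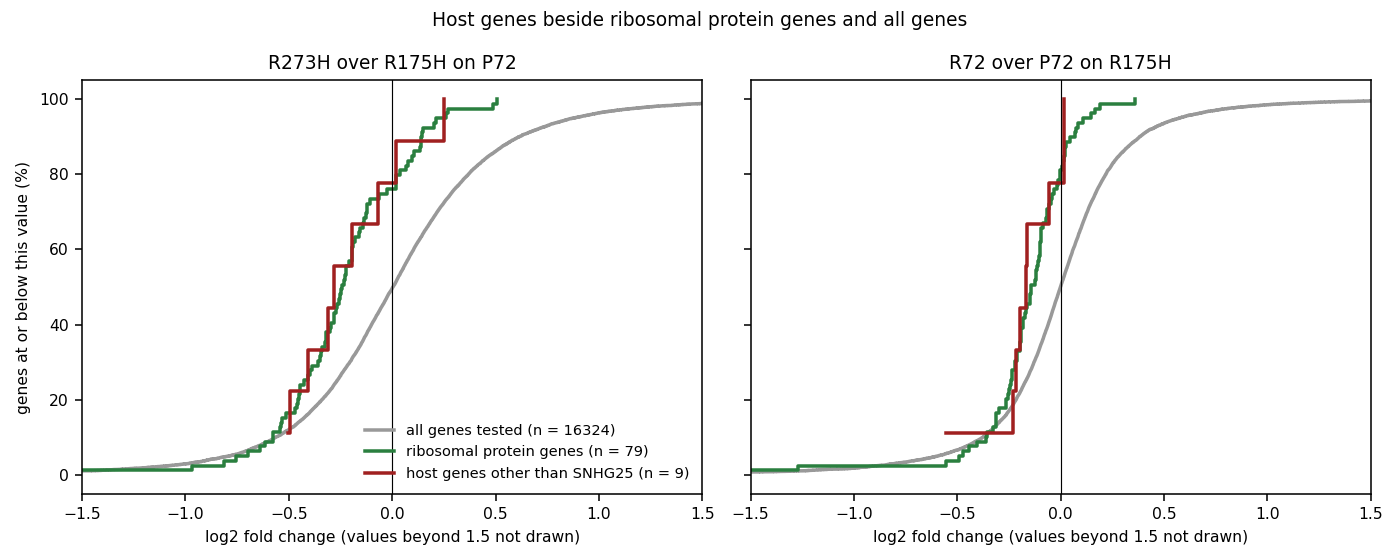
Cumulative share of genes by log2 fold change for all genes tested, ribosomal protein genes and the 9 host genes other than SNHG25, in R273H over R175H on P72 (left) and R72 over P72 on R175H (right). In both panels the host and ribosomal protein curves lie left of that of all genes over most of their length; their medians on the left are -0.28 and -0.24, against 0.003.

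Other genes of the snoRNA system were mixed in this comparison, in which 7.6% of all genes were called lower and 6.95% higher. Of 16 other noncoding hosts tested, C6orf48, SNHG17 and SNHG9 fell, with log2 fold changes of -0.55, -0.48 and -0.44. SNHG9 averaged 41.2 CPM in R273H P72 and 44.3 CPM in R175H P72. It was higher by 0.44 in batch b1 and lost its call in 6 of 22 other settings. SNHG14 rose by 1.08 (SE 0.32), at 2.75 to 4.82 CPM in R273H P72 and 1.96 to 2.62 CPM in R175H P72. It kept its call in 13 other settings and lost it in 8. Of 24 protein-coding hosts 3 fell and 4 rose. EEF2, the translation elongation factor, fell by 0.49 and GNB2L1, which encodes the ribosome-bound protein RACK1, by 0.36. GNB2L1 lost its call in 7 of 22 other settings. RABGGTB and TAF1D rose by 0.63 and 0.35 in the fit with the batch term, and both had negative values without it, -0.24 and -0.11. They kept their calls in 16 and 11 of 22 other settings. Among 19 genes of snoRNA-protein particles and their assembly, NOP10, of the H/ACA particle, fell by 0.49, FBL, the methyltransferase fibrillarin, fell by 0.31 (adjusted p = 0.0497), and NOLC1 rose by 0.43. FBL kept its call in 6 of 22 other settings. Of 18 genes of nonsense-mediated decay, SMG6, its endonuclease, fell by 0.63 (adjusted p = 0.000410) and the other 17 were not called. SMG6 averaged 71.4 CPM in R273H P72 and 86.7 CPM in R175H P72. It was higher by 0.45 in batch b1, so the size of its fitted fall depends on the batch term.

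On R175H, SNHG19 fell with R72 relative to P72, 1 of the 9 genes other than SNHG25, against 0.815% of all genes called lower and 1.13% called in either direction. With a filter of 10 CPM in at least 3 libraries, 161 of 9368 genes were called lower and 79 higher. SNHG19 had 136, 101 and 94.6 CPM in R175H R72 replicates 1, 2 and 4, against 138, 154 and 161 CPM in R175H P72 replicates 1, 2 and 4. The groups did not overlap, but R72 replicate 1, the one library of batch b1 among the 6, lay next to the lowest P72 library. The log2 fold change was -0.55 (SE 0.10, adjusted p = 0.00412), or 1.47-fold lower. The adjusted p was 0.0645 without R175H R72 replicate 2 and 0.378 without the batch term, and the log2 fold change within batch b2 was -0.62 (adjusted p = 0.00426).

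SNHG25 had 2443, 1652 and 1685 CPM in R175H R72 replicates 1, 2 and 4, beside the 2251 to 2396 CPM in R175H P72. Here R72 replicates 2 and 4 were below all P72 libraries and replicate 1 was above them. The fitted log2 fold change was -0.46 (SE 0.09), given as a description. GC content was taken over the last 500 bases of each transcript, or over the whole of a shorter one. It averaged 59.9% for SNHG25 and 56.1% for SNHG19, against a median of 46.2% over 16029 genes tested with an annotation. The annotated exons of SNHG25 and SNHG19 cover 278 and 342 bases, so their values are for whole transcripts. For each library, log2 CPM less the mean of the gene over the 11 libraries was regressed on this GC content. The slope, relative to the average library, was 0.073 per 10 percentage points in R72 replicate 1. It was -0.088 in replicate 2 and -0.053 in replicate 4, and 0.005 to 0.026 in the 3 P72 libraries. With each library's GC trend entered into the fit, the log2 fold change was -0.34 for SNHG25 and -0.50 for SNHG19 (adjusted p = 0.0198).

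Of the genes not called on R175H, SNHG5 and SNHG8 were lower with R72 without overlap. SNHG5 had 979 to 1073 CPM in R175H R72, under the 1106 to 1271 CPM in R175H P72 (log2 fold change -0.20, SE 0.09, adjusted p = 0.318). SNHG8 had 439 to 496 CPM in R175H R72, under the 529 to 562 CPM in R175H P72 (log2 fold change -0.23, SE 0.08, adjusted p = 0.184). With SNHG19 these are 3 genes lower with no overlap, against 6.15% of all genes. SNHG16, GAS5 and SNHG1 had log2 fold changes of -0.22, -0.17 and -0.16, and SNHG15, SNHG6 and ZFAS1 lay between -0.06 and 0.02. The median over the 9 genes was -0.17, against -0.001 over all genes.

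Of the 79 ribosomal protein genes, 4 fell with R72 on R175H, none rose, and 64 had negative values, with a median of -0.14. Over all genes 0.815% were called lower and 50.1% had negative values. RPL18 averaged 71.2 ± 29.1 CPM in R175H R72 and 149 ± 21.5 CPM in R175H P72 (SD, n = 3 each), and fell by 1.27 on the log2 scale. RPS18, RPS19 and RPS28 fell by 0.47, 0.44 and 0.41. The number called ran from 0 to 13 over 22 other settings, and was 1 with the GC trend entered. EEF2 fell by 0.40 (SE 0.09, adjusted p = 0.0243) and was the only gene called among the other hosts, the snoRNA-protein genes and the decay genes. It lost this call in 8 of 22 other settings, and its groups overlapped, at 1760 to 2330 CPM in R175H R72 and 2240 to 2590 CPM in R175H P72. C6orf48 had -0.33 (adjusted p = 0.0590), NOP10 -0.28 (adjusted p = 0.114) and SMG6 -0.30 (adjusted p = 0.116).

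**Figure D4:**
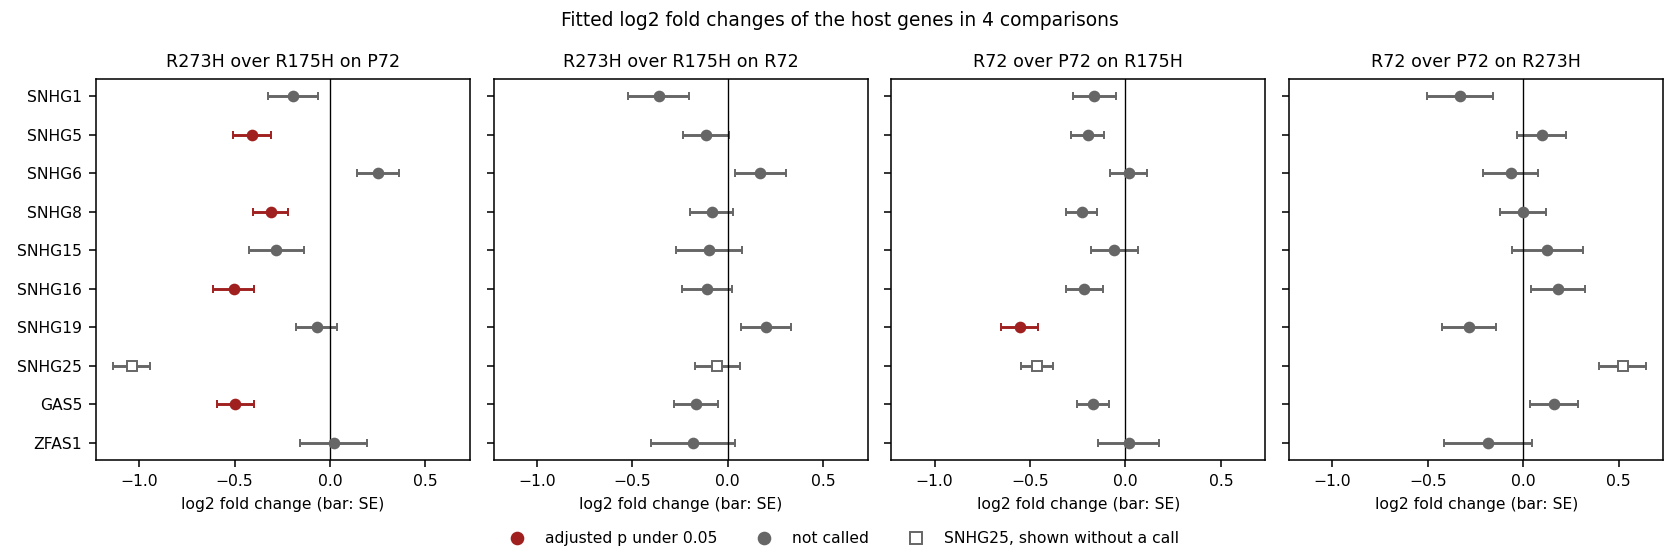
Log2 fold changes (points) with standard errors (bars) of the 10 host genes in 4 comparisons, from the fit to 11 libraries with a batch term; red points have an adjusted p under 0.05, and SNHG25 is drawn as an open square with no call. SNHG5, SNHG8, SNHG16 and GAS5 are red for R273H over R175H on P72 and SNHG19 for R72 over P72 on R175H; SNHG25 is at -0.46 for R72 on R175H and at 0.52 for R72 on R273H.

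On R273H the codon 72 comparison rests on 1 R72 library, which the fit assumes to vary like the other groups. None of the 9 genes was called by edgeR, none had an unadjusted p under 0.05, and DESeq2 and limma-voom also called 0. Over all genes edgeR called 0.0%, with 1265 genes at an unadjusted p under 0.05, while DESeq2 called 23 genes higher and 89 lower. SNHG25 had 1636 CPM in the R273H R72 library and 1181 CPM in the R273H P72 library of the same batch, with 1484 to 1700 CPM in the other 3. Its fitted log2 fold change was 0.52 (SE 0.12), of the sign opposite to that on R175H, and the difference between the R72 effects (R273H minus R175H) was 0.98 (SE 0.16), the contrast by which it was chosen. SNHG19 had 118 CPM in the R273H R72 library, under the 156 to 177 CPM in the 4 R273H P72 libraries, with a log2 fold change of -0.28 (SE 0.14, adjusted p = 0.659). SNHG1 was also lowest in the R273H R72 library, at 182 CPM against 216 to 298 CPM in R273H P72 (log2 fold change -0.33, SE 0.17, adjusted p = 0.686).

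For the other genes the differences between the R72 effects, which share the P72 and R72 libraries above, were 0.40 (SE 0.18) for SNHG16, 0.33 (SE 0.16) for GAS5, 0.30 (SE 0.17) for SNHG5, 0.27 (SE 0.18) for SNHG19, 0.23 (SE 0.15) for SNHG8 and 0.18 (SE 0.24) for SNHG15. They were -0.08 (SE 0.19) for SNHG6, -0.17 (SE 0.22) for SNHG1 and -0.20 (SE 0.30) for ZFAS1. No call was made on these differences for the host genes. Ribosomal protein genes had a median log2 fold change of 0.07 with R72 on R273H, and edgeR and limma-voom called 0 of the 79, of which 6 reached an unadjusted p under 0.05 in edgeR, while DESeq2 called 1 higher and 2 lower. Over 21 other settings their median ran from -0.01 to 0.10 on R273H, while on R175H it ran from -0.19 to -0.08 over 22 settings.

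Between the hotspots on R72, 1 R273H library against 3 R175H libraries, 0 of the 9 genes other than SNHG25 were called by edgeR, DESeq2 or limma-voom, against 0.0429% of all genes by edgeR. SNHG1 was the only one of the 9 with an unadjusted p under 0.05 (log2 fold change -0.36, SE 0.16, adjusted p = 1.0), with 182 CPM in R273H R72 and 206 to 275 CPM in R175H R72. GAS5 had 287 CPM in R273H R72 and 302 to 334 CPM in R175H R72, SNHG5 961 against 979 to 1073, and SNHG8 442 against 439 to 496. SNHG25 had a log2 fold change of -0.05 (SE 0.12). Of the ribosomal protein genes, 0 were called by edgeR, DESeq2 or limma-voom, 1 had an unadjusted p under 0.05, and the median was -0.04.

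In GAS5, SNHG5, SNHG8 and SNHG15 the R273H P72 mean was lowest, followed by the R273H R72 library, R175H R72 and R175H P72. SNHG25, given as a description, had the same order, and in the other 5 genes the order was different. The share of all genes with this order was not counted, and the means are not adjusted for batch. For SNHG8 the R273H P72 mean was 441.3 CPM, beside 441.5 CPM in the R273H R72 library. GAS5 was at 287 CPM in R273H R72 and averaged 251 CPM in R273H P72, 319 in R175H R72 and 362 in R175H P72. SNHG5 was at 961 CPM in R273H R72 and averaged 844 CPM in R273H P72, 1011 in R175H R72 and 1192 in R175H P72. SNHG25 was at 1636 CPM in R273H R72 and averaged 1469 CPM in R273H P72, 1927 in R175H R72 and 2343 in R175H P72. For SNHG25 neighbouring groups were not separated beyond their spread: the R273H R72 library lay within the R273H P72 range, and R175H R72 replicate 1 lay above all R175H P72 libraries. For GAS5 the highest R175H R72 library, at 334 CPM, was above the lowest R175H P72 library, at 332 CPM.

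Of the 9 host genes other than SNHG25, 1 was called higher in batch b1 than in b2 and 2 lower. Over all genes 3.6% were called higher, 5.61% lower and 9.21% in either direction. With a filter of 10 CPM in at least 3 libraries, 800 of 9368 genes were called higher and 912 lower, beside 2 and 2 of the 9 host genes. SNHG16 was higher by 0.36 (SE 0.09) on the log2 scale, and ZFAS1 and SNHG6 fell by 0.80 (SE 0.15) and 0.45 (SE 0.09). The adjusted p-values of SNHG16, ZFAS1 and SNHG6 were 0.0148, 0.00639 and 0.00412. SNHG25 was higher by 0.47 (SE 0.08), given as a description because the contrast that chose it depends on the batch term. ZFAS1 had 139, 178 and 188 CPM in the 3 R273H P72 libraries of batch b1 and 349 CPM in that of batch b2, and 201 CPM in R175H R72 replicate 1 (batch b1) against 319 and 254 CPM in replicates 2 and 4. Of the 9 genes other than SNHG25, 1 was called for batch without R175H R72 replicate 1, and 0 without R273H P72 replicate 1. R273H P72 and R175H R72 are the only groups with libraries of both batches, and these 2 libraries are the lone member of their batch in their group.

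Some of the counts cannot be placed on 1 gene with certainty, since the sources used here do not tell if reads were counted by strand. ZFAS1 shares 249 exonic bases with ZNFX1 on the other strand, which had 6047 counts in all, at 48.4 to 63.7 CPM. SNHG16 shares 1639 exonic bases with AC015802.6 on the other strand. SNHG6 overlaps MCMDC2 and GAS5 overlaps GAS5-AS1, which had 15 and 19 counts in all. SNORD26, printed above, had 6393 counts, while the other 6 entries inside SNHG1 had 44 at most, and its span overlaps an annotated exon of SNHG1. It was at 70.6 CPM in R273H R72, 46.0 to 58.5 in R273H P72, 63.0 to 72.7 in R175H R72 and 51.8 to 61.7 in R175H P72, with log2 fold changes of R72 over P72 of 0.47 (SE 0.16, adjusted p = 0.411) on R273H and 0.25 (SE 0.11, adjusted p = 0.321) on R175H.

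Among 8968 genes averaging 10 CPM or more, those closest to each of 4 host genes over the 11 libraries were found by the root-mean-square (RMS) difference of centred log2 CPM. For GAS5 they were EIF4B, a translation initiation factor, COPS2 and POLR2M, at 0.058, 0.072 and 0.074, beside an RMS of 0.224 for GAS5 itself about its mean. For SNHG25 they were MAF1, a repressor of RNA polymerase III, ECI1 and SHMT2, at 0.081, 0.083 and 0.084 (own RMS 0.329). For SNHG1 they were ASB1, ZNF568 and WWC1, at 0.086 to 0.089 (own RMS 0.199), and for ZFAS1 RGP1, TMEM230 and DTD1, at 0.110 to 0.129 (own RMS 0.410). None of these 12 genes is a ribosomal protein gene, but at most 79 of the 8968 genes searched are, so this says little. SNHG25 was chosen on values of these same libraries. The libraries share their batches and GC trends, and the measure was not adjusted for either.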

How the data were processed

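RNA of 11 H1299 libraries was sequenced from the 3′ end (QuantSeq, 75 bp single reads), per the labels' protocols. The deposited values are estimated counts per gene and were whole numbers as deposited by the authors; rounding them for the count tools changed nothing. Per the submitters' processing notes the tools were Bowtie2, RSEM 1.2.12 and DESeq2, on build hg38; their order and settings are not given. No molecular identifiers are named, so counts are of reads, not molecules. Genes were kept with filterByExpr (minimum count 10, total 15), which left 16324, scaled by TMM, and fitted over 11 libraries with a mean for each of 4 groups and a batch term by edgeR 4.0.16's robust quasi-likelihood test in R 4.3.3, with Benjamini-Hochberg adjustment over all genes and a threshold of 0.05. Each SE is the log2 fold change divided by the square root of F. Libraries of a group were compared pair by pair, and in each of the 12 pairs the counts differed beyond sampling noise. Annotation came from GENCODE 29.

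Members, gene lists and tests were chosen with earlier results of these data known. The genes named are all 10 hosts, up to 6 called ribosomal protein genes a comparison (3 where none was called), up to 4 of each other list (otherwise 2), and the 3 nearest genes of 4 hosts; some genes that the rule took are not reported here. The alternatives tried were library totals or RLE in place of TMM, no filter or a minimum of 10 CPM in 3 libraries, limma-voom (limma 3.58.1), DESeq2 1.42.0, no batch term, a replicate block, batch b2 alone, a GC correction (a spline of 5 degrees of freedom for each library), GC with the block, and each library left out. The procedure was tested on simulated counts.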

Additional observations from a re-analysis of the deposited data

Results flagged for a closer look

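SNHG8 in R273H P72 replicate 4, at 431 CPM, stood apart from the other 3 libraries of its group, which lay within 444 to 446 CPM. The gap to its nearest neighbour took more than 0.829 of the range of the group, Dixon's critical value for 4 values. Of 10 such groups examined, 1 per host gene, this was the 1 that passed, and chance passes about 1 in 20. All 4 values were below those of R175H P72.

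The R72 effect on SNHG25 differed between the hotspot mutants by 0.985 on the log2 scale (R273H minus R175H), being 0.52 on R273H and -0.46 on R175H. This is the contrast by which the gene was chosen, so it is given with no test, and the R273H side rests on 1 R72 library.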

How the results depend on the processing

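On R175H, 1 of 9 host genes (SNHG19) was called for R72 over P72; 0 were called without the batch term or with the GC correction and the replicate block together, and 0 to 1 with 1 library left out, 0 without R175H R72 replicate 2. On P72, 4 of the 9 genes other than SNHG25 were called for R273H over R175H; 1 was called in batch b2 alone, and 2 to 4 with 1 library left out, 2 without R175H R72 replicate 1 and 2 without R273H P72 replicate 1. With SNHG25, whose call is no evidence since it was chosen on these values, these counts are 5, 2, 3 to 5, 3 and 3. Without the batch term the count over the 9 was again 4, with SNHG15 called and SNHG16 not. The SNHG25 difference between R72 effects, 0.985 in the main fit, was 0.438 without the batch term, 0.847 with the replicate block, 0.853 with the GC correction, 0.704 with both, and 0.953 to 1.09 with 1 library left out. The causes were not tested. For R72 on R273H and for the hotspots on R72, none of the 9 genes other than SNHG25 was called under any alternative run; leaving out the only R273H R72 library leaves neither comparison, nor the difference, so it was not run there.

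No pairing of libraries by replicate number was seen in deviations from the group means. Those of same-numbered libraries correlated at -0.603 to 0.259 over 9 pairs, 1 of them above 0.1, and those of the other 24 pairs at -0.339 to 0.633. Batch was not removed from these deviations, and the pair at -0.603 joins libraries of different batches, so they cannot settle whether the numbers pair the libraries. With the replicate number as a block, 3 of the 9 genes other than SNHG25 were called for R273H over R175H on P72 and 1 of them for R72 on R175H.

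RABGGTB and TAF1D, higher in R273H on P72, had -0.242 and -0.110 without the batch term. Over all genes, calls for R72 over P72 on R175H numbered 52 higher and 133 lower in the main fit, 133 and 200 by DESeq2, 229 and 335 without the filter, 4 and 2 without the batch term, 13 and 68 with the replicate block and 15 and 39 with the GC correction. For R273H over R175H on P72 they numbered 1135 and 1241, and 419 and 447 in batch b2 alone. For R72 over P72 on R273H they numbered 0 and 0 in the main fit, 23 and 89 by DESeq2 and 29 and 108 without the filter. Ribosomal protein genes called lower for R72 on R175H numbered 4, and 0 to 8 with 1 library left out; on P72 they numbered 25, and 15 to 29.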
